A study of Mus musculus with 2 samples.

Results

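The microRNAs described here are the copies of the Mir297, Mir466, Mir467 and Mir669 families, which lie mostly in a repeat cluster within 1 intron of the mouse gene Sfmbt2. They were chosen by name: every listed gene whose symbol starts with one of those stems, 69 of the 1973 microRNA genes in the tables. Symbols came from GENCODE M21 by stable Ensembl identifier. By family, 6 were Mir297, 25 Mir466, 17 Mir467 and 21 Mir669 copies. The name of the group fits 59 of the 69, whose hairpins lie inside Sfmbt2 on its strand, and the other 10 lie elsewhere in the genome. A further 12 annotated copies with such names, 3 of Mir466 and 9 of Mir669a, all inside Sfmbt2, were not analysed here.

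The study sequenced small RNA from hearts of B6NCrl mouse embryos at embryonic day 10.5, male and female pooled. There was 1 group, with replicate 1 made from a pool of 69 embryos and replicate 2 from a pool of 51. No treatment, mutation or other stage enters, so all comparisons are between copies within this tissue or between the replicate libraries. Levels are reads on the gene's own strand. They are also given as CPM, which scales them to the total of own-strand gene reads, 4163656 in replicate 1 and 4789068 in replicate 2.

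A microRNA is cut from the hairpin of a longer transcript, and its seed, bases 2 to 8, pairs with target messages. A hairpin inside an intron can be released from the transcript of its host gene. Sfmbt2 encodes a Polycomb group protein, is imprinted with expression from the paternal allele, and is known for its role in the placenta and other extraembryonic tissue. The intronic cluster is one of the largest microRNA clusters in the mouse and arose by repeated duplication. Its hairpins carry stretches of alternating bases, and many of them share sequence with others, to a degree that varies between copies. That matters for the counts: reads that map to several places were entered by the authors in a row of their own and given to no gene. Such reads numbered 2337267 and 2587089 in replicates 1 and 2, or 23.3% and 23.5% of all reads, 114 and 132 times the counts of the 69 copies. How many of them came from these copies was not tested, so every count below is of reads that map to 1 place.

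Mature sequences were at hand for 8 copies, none of them of the Mir297 family. They come from RefSeq (GRCm38.p6), which matched 8 of the 69 members, all of them outside Sfmbt2, and are written 5′ to 3′ with the seed in capitals.
miR-466q: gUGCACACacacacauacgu
miR-466k: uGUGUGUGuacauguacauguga
miR-669n: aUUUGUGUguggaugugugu
miR-467g: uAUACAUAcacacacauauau
miR-467h: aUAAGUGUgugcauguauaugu
miR-466j: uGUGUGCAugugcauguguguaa
miR-467f: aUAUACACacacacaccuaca
miR-466i-3p: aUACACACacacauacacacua
The 8 seeds all differ, also between microRNAs of the same family name. A seed shared with another microRNA of the table was found for 1 of them, miR-467h, whose seed is also that of miR-668-5p. No copy inside Sfmbt2 was matched, so whether their seeds are shared was not tested. The longest run of alternating U and G or of alternating C and A was 7 to 12 bases in these 8 sequences, with a median of 9. Over all 1738 mature mouse sequences of the table the median run was 3 bases, and 19 (1.09%) had a run of at least 7. The 8 sequences are among these 19, and the limit of 7 is their own lowest run. Over whole hairpins, the longest alternating TG or CA run had a median of 9 bases (6 to 28) at the 69 copies and of 4 bases at the 1894 listed genes that matched the annotation. At the 10 copies outside Sfmbt2 this median was 13 bases.

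These 8 sequences lie, on GRCm38, at chr3:28419988-28420007 (miR-466q), chr3:85467396-85467418 (miR-466k), chr3:115979905-115979924 (miR-669n), chr5:34732872-34732892 on the minus strand (miR-467g) and chr9:115381898-115381919 (miR-467h). The remaining sites are chr10:60960802-60960824 (miR-466j), chr11:69635419-69635439 on the minus strand (miR-467f) and chr13:17747552-17747573 (miR-466i-3p), and sites with no strand given are on the plus strand. Mir466q lies in an intron of Tnik on the same strand. Mir466i, Mir466k, Mir467f, Mir467g and Mir669n lie in introns of Cdk13, Gm37240, Fxr2, Grk4 and Slc30a7 on the opposite strand. Mir466j and Mir467h lie in no other annotated gene, and the same holds for Mir297-1 on chromosome 7 and Mir466f-4 on chromosome 13.

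None of the 10 copies outside Sfmbt2 had a read in either library. All of the families' uniquely mapped reads were therefore inside Sfmbt2, 20455 in replicate 1 and 19528 in replicate 2. The share inside was 100% in both libraries, with an exact Clopper-Pearson lower 95% limit of 99.98% in each. A count of 0 allows up to 3 reads per gene, worth 0.721 CPM in the first library and 0.626 CPM in the second. This limit and all intervals given here cover counting error only: without molecular identifiers, several reads can stem from 1 molecule.

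By reads that map to 1 place, the cluster made up a small part of the heart's microRNA reads. It held 4913 CPM in replicate 1 and 4078 in replicate 2, with a mean of 4495 ± 591 CPM (SD, n = 2). As a share of own-strand gene reads this was 0.491% (95% exact interval 0.485 to 0.498%) and 0.408% (0.402 to 0.414%). The intervals do not overlap, so on this scale the libraries differed by more than counting error. The ratio of replicate 2 to replicate 1 was 0.830 by total counts. It was 1.00 with TMM scaling, which sets the library sizes from the bulk of genes, and by total counts the median of all 424 tested genes also lay at a log2 ratio of -0.29.

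Other microRNA lists give the setting. The heart muscle list (the Mir1, Mir133, Mir208 and Mir499 genes) summed to 34752 CPM in replicate 1 and 69061 in replicate 2, with 8 of its 9 genes listed, and Mir208b, which lies within a myosin heavy chain gene, was its highest member at 35502 ± 20457 CPM (SD, n = 2). Markers of other tissues were present too. A liver list summed to 3351 and 293 CPM in replicates 1 and 2, with Mir122 highest at 1626 ± 2053 CPM (SD, n = 2). An epithelial list summed to 7068 and 2089 CPM, with Mir429 highest at 1506 ± 1209 CPM. A red blood cell list summed to 1160 and 1713 CPM, with Mir451a highest at 1228 ± 397 CPM. Their part in the difference between the libraries was not tested. In bulk tissue, fewer cells of a type and less RNA per cell cannot be told apart.

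The cluster was set beside 3 others known from the early embryo or from imprinted loci. The Mir290 to Mir295 cluster, known from embryonic stem cells and trophoblast, summed to 1499 and 1119 CPM in replicates 1 and 2, or 0.305 and 0.275 times the Sfmbt2 cluster. Its highest member was Mir293 at 497 ± 121 CPM (SD, n = 2). The Mir302 to Mir367 cluster, also known from pluripotent cells, summed to 27853 and 22024 CPM, or 5.67 and 5.40 times the Sfmbt2 cluster, with Mir302a highest. The imprinted Mir379 to Mir410 cluster of the Dlk1-Dio3 region summed to 73567 and 42831 CPM, or 15.0 and 10.5 times, with Mir411 highest at 11915 ± 3936 CPM (SD, n = 2). By reads that map to 1 place, the Sfmbt2 cluster thus lay in both libraries above the first of these and below the other 2. Of the 33 listed Mir379 to Mir410 genes, 30 (90.9%) had at least 10 reads in both libraries, against 9 of 69 (13%) of the repeat families. These shares and sums are of hairpins that differ in how much sequence they share with other annotated hairpins. The median percent of a hairpin's 20-base windows found at no other annotated microRNA was 100% in each of the 3 clusters and 32.9% at the 69 copies.

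The reads were not spread evenly over the families. The Mir467 copies held 16632 reads in replicate 1 and 16010 in replicate 2, which is 81.3% and 82.0% of all reads of the 69 copies, with a mean level of 3669 ± 461 CPM (SD, n = 2). The Mir669 copies held 3706 and 3440 reads, or 18.1% and 17.6%, with 804 ± 121 CPM. The Mir466 copies were the most numerous and held 107 and 71 reads, or 0.523% and 0.364%, with 20.3 ± 7.69 CPM. The Mir297 copies held 10 and 7 reads, or 0.0489% and 0.0358%, with 1.93 ± 0.665 CPM. The order of the families was the same in both libraries.

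Within the families, most copies had no read. No read was found at 42 of the 69 (60.9%), among them 3 Mir297, 15 Mir466, 11 Mir467 and 13 Mir669 copies, and 32 of these 42 lay inside Sfmbt2. Another 8 had reads in 1 library only, and 10 had reads in both but fewer than 10 in at least 1. The remaining 9 had at least 10 reads in both libraries, and are called detected here: 3 Mir467, 5 Mir669, 1 Mir466 and no Mir297 copies. Of all 1973 listed genes, 19.3% were detected, so the 13% of the repeat families was below the share of the tables as a whole. With at least 1 read in either library the shares were close, 27 of 69 (39.1%) against 37.5% of all listed genes. With at least 100 reads in both libraries they were 6 of 69 (8.7%) against 13.1%.

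The 3 highest copies were all of the Mir467 family. Mir467d (ENSMUSG00000077021.2, chr2:10507630-10507714) had 6596 reads in replicate 1 and 6555 in replicate 2, or 1584 and 1369 CPM, with a mean of 1476 ± 152 (SD, n = 2). It alone held 32.2% and 33.6% of the families' reads. Among all listed genes it ranked 81st in replicate 1 and 72nd in replicate 2. Mir467c (ENSMUSG00000077049.2, chr2:10473931-10474027) had 5700 and 5068 reads, or 1369 and 1058 CPM, with a mean of 1214 ± 220 and a share of 27.9% and 26.0%. Mir467e (ENSMUSG00000076948.2, chr2:10505721-10505807) had 4323 and 4376 reads, or 1038 and 914 CPM, with a mean of 976 ± 88.1 and a share of 21.1% and 22.4%. Together these 3 held 81.2% and 81.9% of the families' reads (mean 81.6% ± 0.482, SD, n = 2).

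Next came 3 Mir669 copies. Mir669o (chr2:10514300-10514395) had 1557 reads in replicate 1 and 1502 in replicate 2, a mean of 344 ± 42.7 CPM (SD, n = 2). Mir669l (chr2:10468971-10469068) had 1475 and 1303 reads, a mean of 313 ± 58.1 CPM. Mir669c (chr2:10509296-10509404) had 543 and 532 reads, a mean of 121 ± 13.7 CPM. With the 3 Mir467 copies above, these 6 held 98.7% and 99.0% of the families' reads.

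The other detected copies were low. Mir669e (chr2:10467495-10467613) had 92 and 74 reads, a mean of 18.8 ± 4.70 CPM (SD, n = 2). Mir466n (chr2:10513741-10513834) was the one detected copy of its family, with 86 and 59 reads and 16.5 ± 5.89 CPM. Mir669h (chr2:10518155-10518279) had 31 and 24 reads and 6.23 ± 1.72 CPM. Mir467b (chr2:10481248-10481320) reached 10 reads in replicate 1 and had 6 in replicate 2, 1.83 ± 0.812 CPM, which put it just outside the detected copies.

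**Figure D1:**
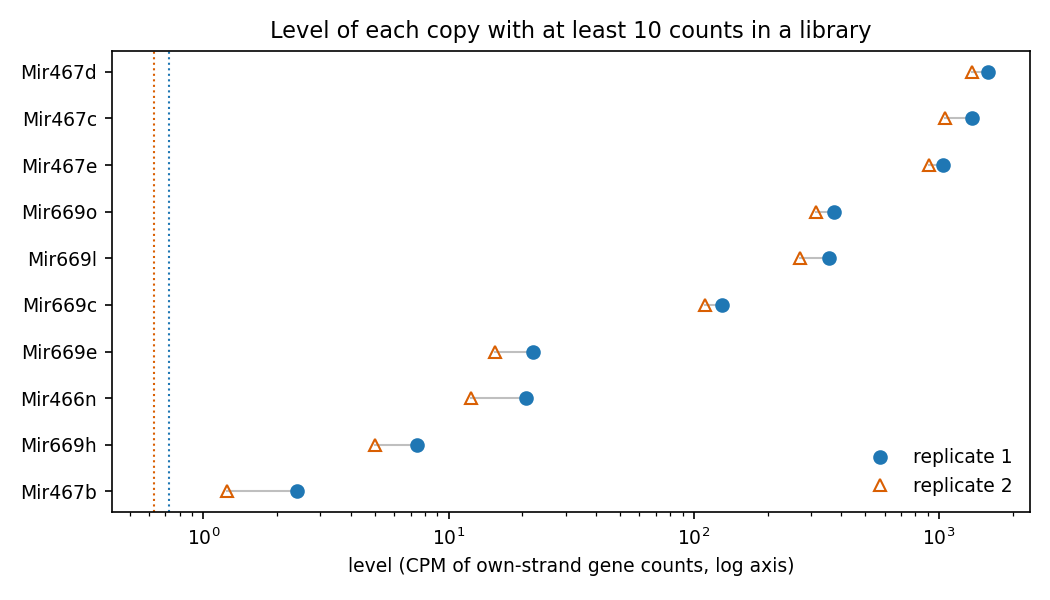
Level of each repeat-family copy that had at least 10 reads in at least 1 library, in CPM of own-strand gene reads on a log axis, with 1 point per library and dotted lines at the CPM that 3 reads are worth in each library. The copies fall in the same order in both libraries, from Mir467d at 1584 and 1369 CPM to Mir467b at 2.40 and 1.25 CPM.

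These 10 copies stood in the same order in both libraries, but not every step in the order was beyond counting error. Mir467d was 1.16 times Mir467c in replicate 1 (95% exact interval 1.12 to 1.20) and 1.29 times in replicate 2 (1.25 to 1.34). Mir467c was 1.32 times Mir467e in replicate 1 (1.27 to 1.37) and 1.16 times in replicate 2 (1.11 to 1.21). For these 3 copies the replicates gave ratios whose intervals do not overlap, while the order held in both. The SDs of the CPM values include the shift between the libraries that all copies share, so neighbours were compared within each library, where all 4 of these intervals lay above 1.

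Mir669o and Mir669l could not be ordered in replicate 1, where their ratio was 1.06 (0.982 to 1.13), and differed in replicate 2 at 1.15 (1.07 to 1.24). Mir669e and Mir466n could not be ordered in either library, with ratios of 1.07 (0.789 to 1.45) and 1.25 (0.879 to 1.80). The wide steps were from Mir467e to Mir669o, at 2.78 and 2.91 times in replicates 1 and 2, from Mir669l to Mir669c, at 2.72 and 2.45 times, and from Mir669c to Mir669e, at 5.90 and 7.19 times. Per base of hairpin, the order of the 10 was the same except that Mir466n and Mir669e changed places.

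Along the chromosome, nearly all reads that map to 1 place lay in the first and last stretches of the cluster. Sfmbt2 spans chr2:10370510-10595253 on the plus strand (mm10), and the 59 hairpins start at 10466663 (Mir466m) and end at 10518279 (Mir669h), a stretch of 51.6 kb. All 59 lie in 1 intron of 62.5 kb, between the exon that ends at 10461472 and the one that starts at 10523945, and none overlaps an exon. The first 7.37 kb, from Mir466m to Mir467c, held 13 copies and 7283 and 6457 reads, or 35.6% and 33.1% of the families' reads in replicates 1 and 2, and 3 of its copies were detected. The last 12.6 kb, from Mir467e to Mir669h, held 20 copies and 13155 and 13059 reads, or 64.3% and 66.9%, and 6 of its copies were detected.

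Between them, 26 copies over 29.2 kb, from Mir669a-3 to Mir466b-3, held 17 reads in replicate 1 and 12 in replicate 2. This was 0.0831% and 0.0615% of the families' reads. No copy here was detected, 21 had no read, and 10 of the 12 annotated copies not analysed here also lie in it. Within it, 16 neighbouring listed copies from Mir467a-3 to Mir467a-10, over 19.7 kb, had no read in either library. These zone limits were drawn after the counts were seen, so the zones are a description. Mir467c and Mir467e stand at the limits themselves, 7.27 and 39.1 kb from the start of the first hairpin, with Mir467d at 41.0 kb. The outermost hairpins were low, with 0 reads in both libraries at Mir466m and 31 and 24 reads at Mir669h.

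**Figure D2:**
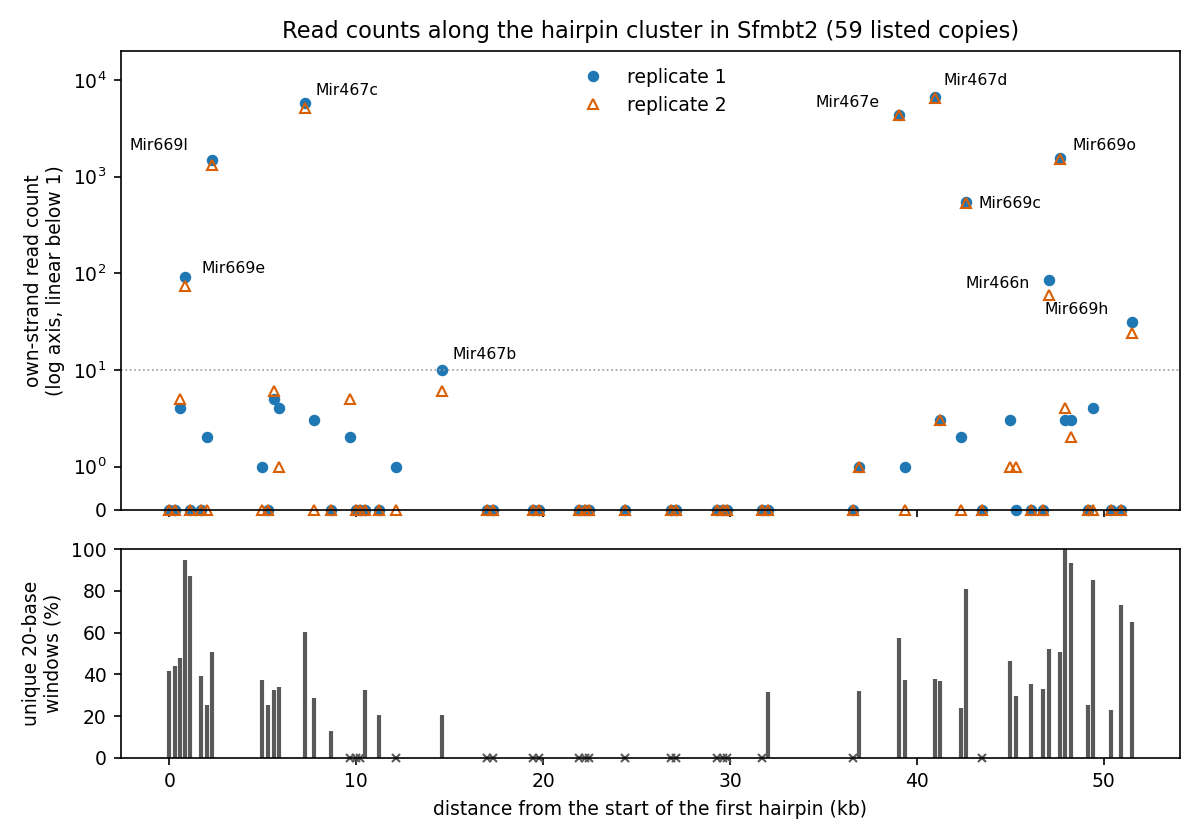
Own-strand reads of the 59 listed copies inside Sfmbt2 in both libraries (upper panel, log axis, linear below 1, dotted line at 10 reads) and the percent of each hairpin's 20-base windows found at no other annotated microRNA hairpin (lower panel, crosses for 0), against distance from the start of the first hairpin in kb. Nearly all reads sit in the first and last stretches. The middle 29.2 kb, where 19 of 26 copies have no window of their own, holds 17 and 12 reads.

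Because reads were counted only where they map to 1 place, each hairpin was compared with all other annotated microRNA hairpins on both strands. The measure is the percent of a hairpin's 20-base windows that occur at no other hairpin, called unique windows here and shown in the figures. A window that occurs again within its own hairpin was not counted as unique. Hairpins that overlap in the genome were not counted as other hairpins. Over the 1894 listed genes that matched the annotation the median was 100%. Over the 69 copies it was 32.9%, and 20 of them, all inside Sfmbt2, had no unique window. Of those 20, 19 lie in the middle stretch, where the median was 0, against 41.5% in the first stretch and 42.3% in the last. The 16 neighbouring copies without a read include 15 with no unique window, and the exception is Mir466b-2.

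Copies with no unique window were almost without reads. Of the 20, 2 had any read and none was detected, and among 239 other listed genes with no unique window, 3 had any read and 2 (0.837%) were detected. Of the 28 copies with some but at most 50% unique windows, 14 had reads and 1 was detected. Among 272 other listed genes in that range, 7 had reads and none was detected. Of the 21 copies above 50%, 11 had reads and 8 (38.1%) were detected, beside 370 of 1314 other listed genes (28.2%). Mir669o and Mir669l lie just above that limit, at 50.6% each. The split depends on the window length. With 18-base windows, 4 of 32 copies with some but at most 50% unique windows were detected. Above 50%, 5 of 17 (29.4%) were then detected, beside 28.7% of other listed genes. Unique windows were computed from the annotation and not from the reads. They compare annotated hairpins and not the genome, so a read from a unique window can still map to several places. They do not say how much was made.

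The 2 copies that had reads without a unique window were Mir467a-1, with 2 and 5 reads in replicates 1 and 2, and Mir467a-2, with 1 and 0. Both belong to the most uniform set of the cluster, 10 listed Mir467a copies spaced 2.41 to 4.88 kb apart (median 2.46 kb). Over their 45 pairs the hairpins were 86.7 to 100% identical, with a median of 98.8%, and the 10 copies hold 3 distinct sequences. In total they had 3 and 5 reads, and 8 of the 10 had none. Whether Mir467a was made in these hearts cannot be told from these counts.

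Mir467d went the other way. It was the highest of the 69, and at 37.9% it had the lowest share of unique windows of the 9 detected copies, whose median was 57.4% and whose highest was 95% (Mir669e). It was also the 1 detected copy below 50%. Its hairpin was 92.0% identical to that of Mir467e, 83.5% to Mir467c and 81.4% to Mir467b, and it shared stretches of up to 34, 34 and 44 bases with them. Mir467c and Mir467e were 83.7% identical, with a shared stretch of 48 bases. The 3 highest copies are therefore near relatives, and a read from a stretch that they share with each other or with other hairpins maps to several places.

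**Figure D3:**
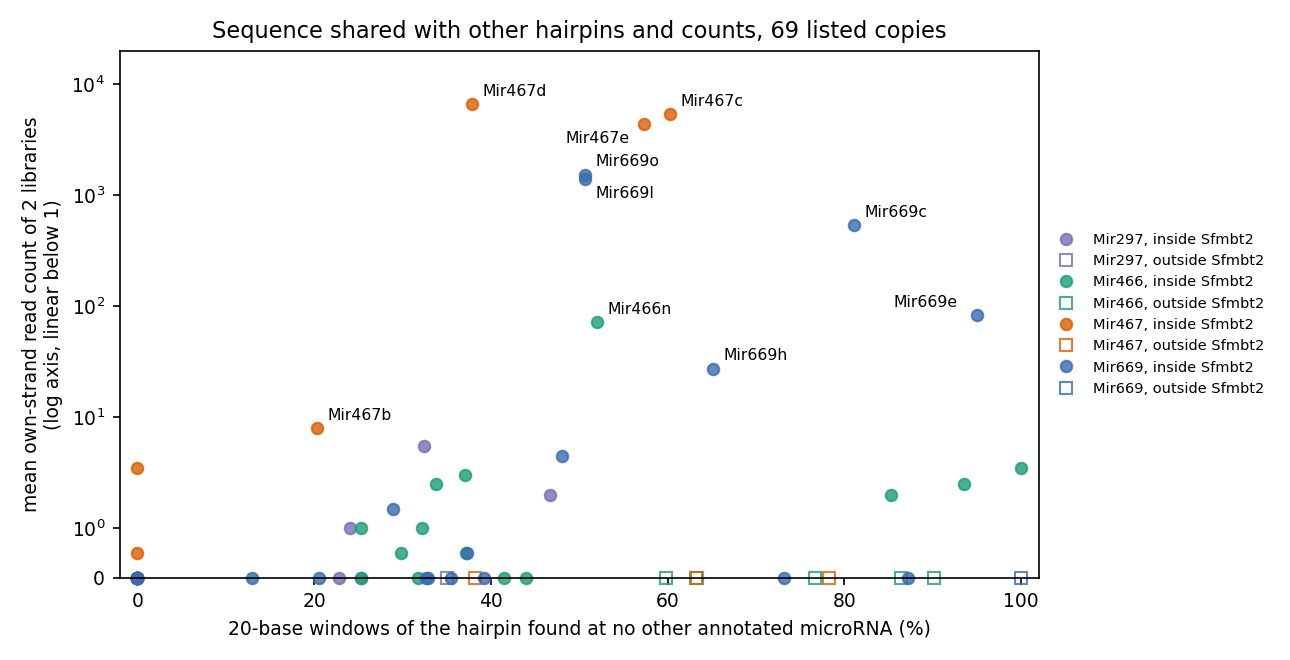
Mean own-strand reads of both libraries (log axis, linear below 1) against the percent of a hairpin's 20-base windows found at no other annotated microRNA hairpin, 1 point per copy, filled circles inside and open squares outside Sfmbt2. Mir467d stands highest at 37.9% unique windows, and the 8 outside copies above 50% all lie at 0 reads.

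Among annotated hairpins, the copies outside Sfmbt2 mostly had windows of their own. Of the 10 copies outside Sfmbt2, 8 had more than 50% unique windows, and the median over all 10 was 70.0% (35.1 to 100%). Against all annotated transcripts the median over the 10 was 62.0% (26.7 to 97.1%). All 8 had 0 reads in both libraries. The genome was not searched, so whether reads of these copies could be placed was not tested. Inside Sfmbt2, 13 copies had more than 50% unique windows, 11 of them had reads and 8 were detected. The 5 that were not detected were Mir669b, Mir466g, Mir466h, Mir466l and Mir669i. Of these, Mir466g had 3 and 4 reads, Mir466h had 3 and 2, Mir466l had 4 and 0, and Mir669b and Mir669i had none.

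Reads at the cluster were on 1 strand. On the strand opposite to the hairpins, 0 of 20455 reads were found in replicate 1 and 0 of 19528 in replicate 2, which allows a share of up to 0.0147% and 0.0154%. The own-strand and both-strand counts of the 69 copies were thus the same. None of these copies overlaps another annotated microRNA gene. Over all listed genes the opposite strand held 4.46% and 4.58% of reads. This share is pooled over genes, and its spread over single genes, or over genes without such an overlap, was not examined.

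The libraries were then compared copy by copy, with an exact two-sided binomial test on TMM-scaled library sizes and Benjamini-Hochberg adjustment over the 424 listed genes with at least 10 reads in at least 1 library. This compares 2 libraries and not conditions, and asks only whether a difference exceeds counting error. Of the 10 copies tested, 2 were higher in replicate 2, beside 30.4% of all tested genes, and 1 was lower, beside 31.1%. Mir467d was higher by a log2 ratio of 0.06 (95% interval 0.01 to 0.11, adjusted p = 0.0202) and Mir467e by 0.09 (0.03 to 0.15, adjusted p = 0.00678). Mir467c was lower, at -0.10 (-0.15 to -0.04, adjusted p = 0.00101). The 3 called copies are the 3 with the most reads.

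The others did not pass. Mir669o stood at a log2 ratio of 0.02 (adjusted p = 0.760), Mir669c at 0.04 (0.704) and Mir669l at -0.11 (0.0822), and Mir466n had the largest difference among the detected copies at -0.47 (0.0867). Mir669e stood at -0.24 (0.397), Mir669h at -0.29 (0.592) and Mir467b at -0.62 (0.547). The median size of the log2 ratio was 0.10 at the 10 copies and 0.47 at all 424 genes, which is 1.07-fold and 1.38-fold. By total counts, none of the 10 was higher, beside 15.6% of all genes, and 8 were lower, beside 46.2%, so the direction at Mir467d (-0.21) and Mir467e (-0.18) turned with the scaling.

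**Figure D4:**
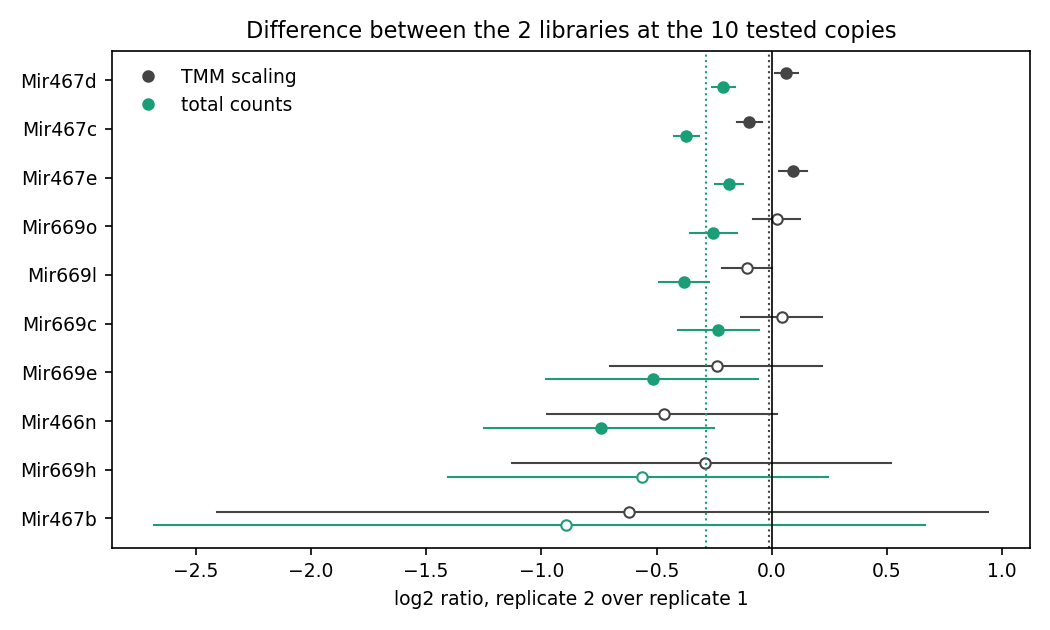
Log2 ratio of replicate 2 over replicate 1 at the 10 tested copies, with 95% exact intervals, for TMM scaling (dark) and total counts (green). Filled points passed an adjusted p of 0.05, and dotted lines mark the median of all 424 tested genes under each scaling, which is -0.01 for TMM and -0.29 for total counts.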

How the data were processed

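Small RNA from 2 pools of embryonic hearts was sequenced. The values are read counts per microRNA gene (hairpin) as deposited by the authors, made from each library's alignment. The README files name mm10 and gene models of GENCODE M4, and no aligner or trimming step is named in the sources used here. Reads mapped to several places, unmapped reads (26.3% and 25.5%) and reads outside listed genes (8.98% and 7.41% of the own-strand column) have rows of their own and entered no library size.

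Symbols and positions came from GENCODE M21, on the same assembly, which matched 1894 of 1973 identifiers, and none of the other 79 had more than 1 count. The members, lists and tests were chosen with earlier results of these data known. Named are all copies that reached 10 counts in a library, copies outside Sfmbt2, and the highest gene of each list. Copies that the text singles out beyond this rule (Mir467a-1, Mir467a-2, Mir466b-2 and the 5 undetected copies with over 50% unique windows) were chosen after their values were seen.

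CPM, shares and Clopper-Pearson 95% intervals were computed with scipy 1.17.1. Scaling factors came from edgeR 4.0.16 (TMM) and DESeq2 1.42.0 (size factors), with R 4.3.3, and log2 ratios add 0.5 counts. A simulation drew counts for 424 genes with counting error only (Poisson), changed 200 of them and used total counts as library sizes. In it the replicate test called 62% of genes at 1.3-fold, 72% at 1.5-fold, 84% at 2-fold and 96% at 4-fold, and 2.23% of unchanged genes. The simulated libraries did not vary beyond counting error, so the last share need not hold for the real libraries. A planned count of copies by unique mature arm was replaced by the 20-base window measure, chosen after seeing the data, because mature sequences were at hand for 8 members. The genome sequence was not used. The labels call the libraries biological replicates, and p-values rest on counting error alone.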

Additional observations from a re-analysis of the deposited data

Results flagged for a closer look

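The tables hold other microRNA genes inside Sfmbt2 that the families' names do not cover. At 48 such genes, all with provisional Gm symbols, the own-strand counts came to 11 in replicate 1 and 13 in replicate 2 in total, and the highest single count was 4. They were flagged because they hold reads and enter no comparison above. The 3 reads that a count of 0 allows are a limit per gene, so the totals over 48 genes cannot be set against it. The highest single count lies just above that limit. The group has 2 libraries, too few for a test of samples that stand apart.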

How the results depend on the processing

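The summed level of 4495 CPM became 2897 CPM when reads mapped to several places were added to the total, and 5291 CPM without the most abundant gene, since each changes the denominator. Copies with counts in both libraries numbered 19 at a minimum of 1 count, against 9 at 10 counts. Copies higher in replicate 2 numbered 0 by total counts and 1 with no filter on low counts, against 2, and copies lower numbered 8 by total counts, against 1. Leaving out 1 replicate gave 4078 to 4913 CPM for the sum, 81.3 to 82.0% for Mir467 and 81.2 to 81.9% for the 3 highest copies. Counts over both strands, DESeq2 size factors and a wider Sfmbt2 span moved no value beyond the spread, and 20 copies lacked a unique window with 18-base or 24-base windows or against all annotated transcripts, settings added after seeing the data. The planned count by unique mature arm, with its minimum of 1 count and its search of the genome, was not run. No paired analysis was possible because there is 1 group. Depth limits the copies with few reads, and reads mapped to several places, whose source was not tested, may limit the copies that share sequence.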
